A study of Mus musculus with 22 samples.

Results

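The data hold the expression of 10 genes of the antioxidant response and the metallothionein family in ischemic mouse muscle, read from 22 mice on 1 array each. The genes are the regulators Nfe2l2 and Keap1, the enzyme genes Nqo1, Gclc, Gclm, Txnrd1, Srxn1 and Gsr, and the metallothionein genes Mt1 and Mt2. They were chosen by name, by taking all probes whose platform gene symbol is one of these 10. A total of 17 probes matched, for 9 of the 10 genes, among 18524 genes with at least 1 probe of a single symbol. No probe carried the symbol Gsr, the gene of glutathione reductase, so it was not analysed here. All mice were male, non-diabetic C57BL/6N mice aged 8 to 12 weeks whose femoral artery had been removed in one hindlimb. On day 5 after surgery, 11 mice (ANTI-210) were injected intraperitoneally with 12 mg/kg of an LNA-oligonucleotide complementary to miR-210, and 11 mice (SCR) were given as much of a scrambled LNA sequence. The ischemic gastrocnemius, a calf muscle, was taken on day 7, that is 2 days after the injection. No unoperated muscle and no mouse without an oligonucleotide was among these samples, so every value describes an ischemic muscle under one of the 2 treatments.

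NRF2, the protein made from Nfe2l2, is a transcription factor that KEAP1 holds in the cytoplasm and passes on for degradation. When oxidants or electrophiles modify cysteines of KEAP1, NRF2 escapes, enters the nucleus, pairs with a small MAF protein and binds antioxidant response elements near genes for glutathione synthesis, thioredoxin reduction and quinone detoxification. Metallothioneins are small cysteine-rich proteins that bind zinc and copper, and their genes are switched on through metal response elements by the zinc-sensing factor MTF1, as well as by glucocorticoids and by inflammatory signals. MiR-210 is the microRNA best known for its induction by hypoxia. In a muscle on day 7 after arterial removal, damaged fibres, infiltrating macrophages and newly formed fibres lie side by side, and the array reads RNA of the whole tissue. Fewer cells of a type and less RNA per cell can therefore not be told apart in these values.

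The mature sequence of the microRNA that ANTI-210 was designed to pair with is given first, as listed by RefSeq, with its seed (bases 2 to 8) in capitals.
mmu-miR-210-3p: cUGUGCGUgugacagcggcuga

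Promoter windows of RefSeq (mouse assembly GRCm38.p6, 250 bases before to 50 after a transcript start) were found for 8 of the 10 genes, Gclc and Gsr having none in the table. They were searched on both strands for the core of the antioxidant response element, TGACNNNGC, and for the core of the metal response element, TGCGCNC or TGCACNC. The antioxidant core was present in 12.4% of all 32851 windows and the metal core in 25.7%, with 3 or more metal cores in 1.97%. Of the 8 genes with a window, 4 held a metal core, with 4 cores in Mt2, 3 in Mt1, 3 in Gclm and 1 in Srxn1, so several cores are no mark of the metallothioneins here. The 7 stretches of Mt1 and Mt2 are shown because both genes moved together between mice, with the matched letters in capitals and in the direction of the gene (both genes lie on the + strand of chromosome 8).
Mt1, chr8:94179056-94179082: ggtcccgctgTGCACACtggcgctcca
Mt1, chr8:94179081-94179107: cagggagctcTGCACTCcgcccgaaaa
Mt1, chr8:94179099-94179125: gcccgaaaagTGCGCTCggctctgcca
Mt2, chr8:94172385-94172411: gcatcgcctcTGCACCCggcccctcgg
Mt2, chr8:94172480-94172506: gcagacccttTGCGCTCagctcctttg
Mt2, chr8:94172558-94172584: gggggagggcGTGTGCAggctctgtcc
Mt2, chr8:94172612-94172638: aattcgggtcGTGCGCAggcccagggg

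The last 2 stretches of Mt2 match on the opposite strand, which is why their capitals read backwards. The antioxidant core was found in 5 of the 8 genes with a window (5 of their 10 windows), namely Nfe2l2, Gclm, Srxn1, Mt2 and 1 of 3 starts of Txnrd1, and the windows of Keap1, Nqo1 and Mt1 held none. The matches of Gclm and Mt2 are shown as the one in an enzyme gene whose level followed the marker scores of the muscle and the one in a metallothionein gene.
Gclm, chr3:122245413-122245441, + strand: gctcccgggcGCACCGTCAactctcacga
Mt2, chr8:94172529-94172557, + strand: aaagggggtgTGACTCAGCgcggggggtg

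The match of Gclm is on the opposite strand and overlaps 1 of the 3 metal cores of that window, and the match of Mt2 also holds the letters of an AP-1 site, TGACTCA. Such a match is a string of letters and not a measured binding site, and a window without one says nothing about elements farther away.

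All values are on the log2 scale, where a step of 1 is a doubling of the intensity. Across all probes they ran between 4.35 and 15.4, and a probe averaging less than 6 over the 22 mice was called dim, which 62.6% of the 38563 probes were. For a gene with several probes, the brightest one stood for the gene. Dim probes were 5 of the 17, among them the only probes of Gclc and Txnrd1 and the second probes of Nfe2l2 and Nqo1. The label of the tissue fits its markers, since 0 of the 19 measured genes of mature muscle fibres were dim. Correlations between arrays over all probes were between 0.947 and 0.997. Of the variance, 63.6% lay on a first principal component, and a second, with 7.31%, separated replicate numbers 1 to 3 of both groups from numbers 4 to 11. No label names this split, so results are also given within numbers 1 to 3 (3 ANTI-210 and 3 SCR mice) and within numbers 4 to 11 (8 and 8 mice). The split was drawn from these values and is no group of the study.

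Across all 22 mice, none of the 9 measured genes differed between ANTI-210 and SCR muscles beyond the spread between mice. In limma's test 0 of 9 genes and 0 of 17 probes had an unadjusted p under 0.05, the threshold of the study's methods, and every adjusted p was 1. Over all genes 3.47% passed the unadjusted threshold, 1.45% being higher in ANTI-210 muscles and 2.01% lower, and 3.41% of all probes passed, so that 0 of 9 lies near this background. Differences were between -0.26 for Txnrd1 and 0.06 for Nfe2l2, with a median of -0.09 against -0.0036 over all genes. The range over the 22 mice was wider than the difference of means for every gene, though a range grows with the number of mice. From the lowest to the highest mouse, measured values spanned 3.45 for Mt2, 2.78 for Mt1 and 2.78 for Nqo1 on the log2 scale. The span was 1.34 for Txnrd1 and 0.62 to 0.94 for Gclc, Gclm, Keap1, Srxn1 and Nfe2l2. The lowest values of Mt2 and Nqo1 lay in the dim range and the highest of Mt1 near the top of the scale, where an array can compress differences, so these spans are not turned into folds.

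**Figure D1:**
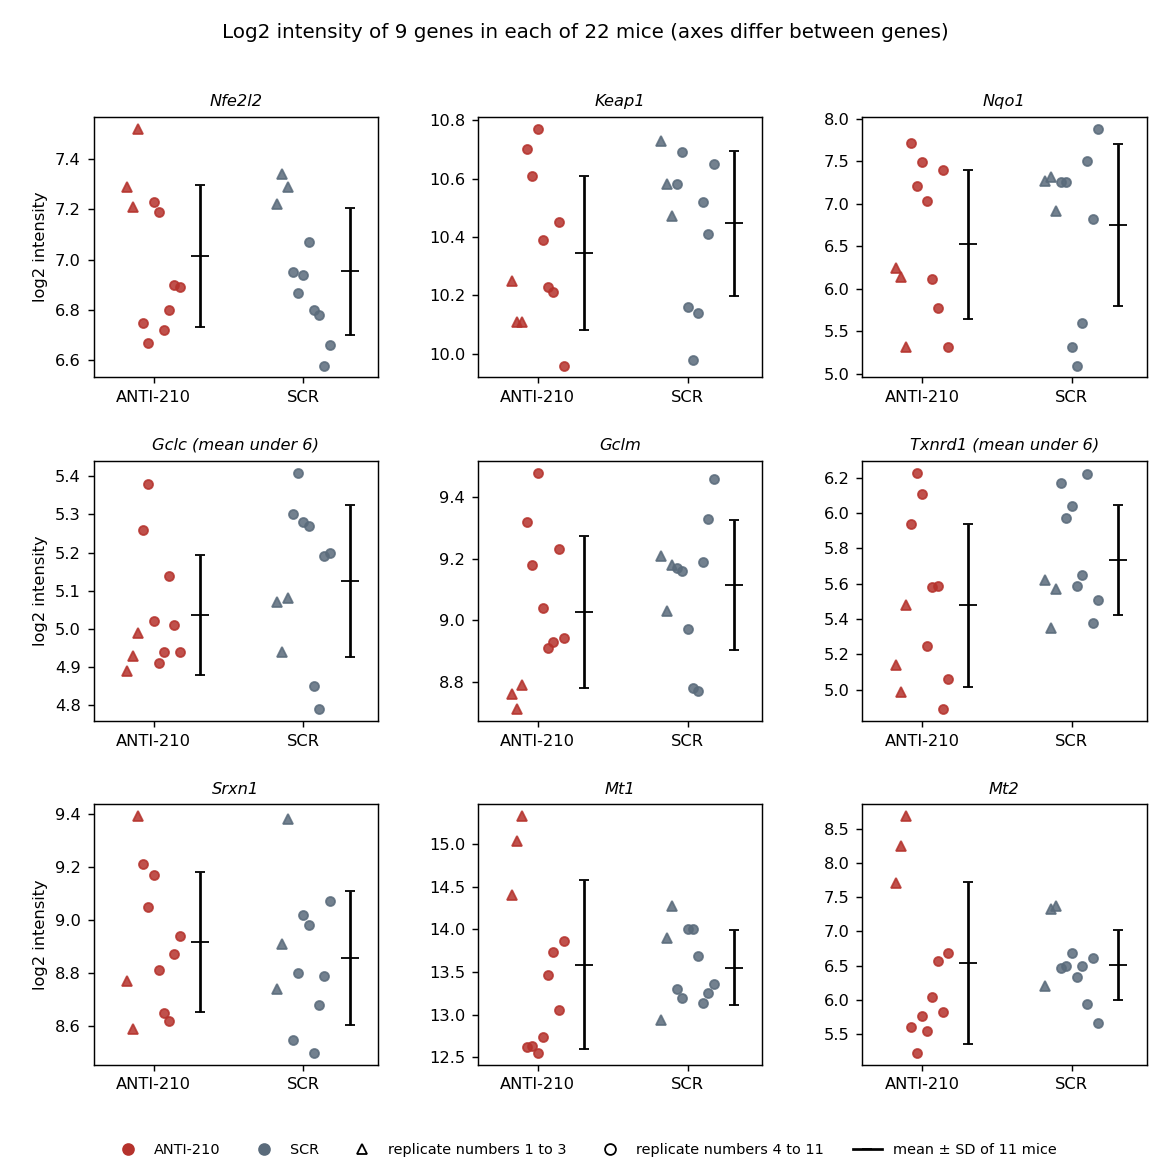
Log2 intensity (vertical axis, scaled for each gene) of the brightest probe of 9 genes in each mouse, with ANTI-210 mice in red on the left and SCR mice in grey on the right, triangles for replicate numbers 1 to 3, circles for numbers 4 to 11, and bars for the mean ± SD of 11 mice. The groups overlap for every gene, and for Mt1 and Mt2 the 3 red triangles lie above all other mice.

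Nfe2l2 encodes NRF2 itself. Its brighter probe had a lowest, median and highest value of 6.67, 6.90 and 7.52 in ANTI-210 muscles, against 6.58, 6.94 and 7.34 in SCR muscles. The groups overlapped over nearly their whole range, and the difference was 0.06 (SE 0.11, 95% interval -0.17 to 0.29, p = 0.588). Its level followed the replicate numbers more than the treatment. In numbers 1 to 3 it was 7.21 to 7.52 in ANTI-210 and 7.22 to 7.34 in SCR muscles, and in numbers 4 to 11 it was 6.67 to 7.23 in ANTI-210 and 6.58 to 7.07 in SCR muscles. The difference between treatments was 0.06 in either set. The second probe was dim, at means of 4.51 ± 0.05 in ANTI-210 and 4.57 ± 0.11 in SCR muscles (SD, n = 11 each), and did not follow the first (r = -0.20 over the 22 mice).

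Keap1, the inhibitor that binds NRF2, was read by 5 probes, of which 4 were bright and correlated with each other at r = 0.83 to 0.96 over the mice. The brightest had a lowest, median and highest value of 9.96, 10.25 and 10.77 in ANTI-210 muscles, against 9.98, 10.52 and 10.73 in SCR muscles. The ranges coincided while the median mouse was lower in the ANTI-210 group, and the difference of means was -0.10 (SE 0.11, p = 0.347). With array weights it was -0.19 (p = 0.0448). The other 3 bright probes differed by -0.06, -0.15 and -0.18, none past the threshold.

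Nqo1, which encodes a quinone reductase and is a standard readout of NRF2 activity, spread widely in both groups. ANTI-210 muscles had a lowest, median and highest value of 5.32, 6.24 and 7.71, against 5.10, 7.25 and 7.88 in SCR muscles. In each group some mice were above 7 and 3 mice were under 6, so that the means of 6.52 ± 0.88 in ANTI-210 and 6.75 ± 0.95 in SCR muscles (SD, n = 11 each) describe few single mice. The difference was -0.22 (SE 0.38, 95% interval -1.01 to 0.56, p = 0.557). Its second probe was dim in all mice and differed by 0.02.

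Gclc and Gclm encode the catalytic and the modifier subunit of glutamate-cysteine ligase, the rate-limiting enzyme of glutathione synthesis. Gclm had a lowest, median and highest value of 8.71, 8.94 and 9.48 in ANTI-210 muscles, against 8.77, 9.17 and 9.46 in SCR muscles, and the difference was -0.09 (SE 0.10, p = 0.371). The 3 lowest ANTI-210 values, 8.71, 8.76 and 8.79, were those of replicate numbers 1 to 3. The probe of Gclc was dim, at 4.89 to 5.38 in ANTI-210 muscles against 4.79 to 5.41 in SCR muscles, with a difference of -0.09 (SE 0.07, p = 0.251). At this brightness a change of Gclc may not be seen.

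Txnrd1 encodes the cytosolic thioredoxin reductase, which keeps thioredoxin reduced at the expense of NADPH. It had the difference farthest from 0 among the 9 genes, and its single probe was dim. Its lowest, median and highest values were 4.89, 5.48 and 6.23 in ANTI-210 muscles, against 5.35, 5.62 and 6.22 in SCR muscles. 5 ANTI-210 mice were below the lowest SCR mouse while the highest mice of both groups were nearly equal, and the difference was -0.26 (SE 0.16, 95% interval -0.59 to 0.08, p = 0.130). Without ANTI-210 mouse 5, the highest of its group, it was -0.33 (p = 0.0418). Removing the highest mouse of the lower group can only widen the difference, and no other mouse left out brought it past the threshold.

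Srxn1 encodes sulfiredoxin, which repairs overoxidized peroxiredoxins. Its brightest probe had a lowest, median and highest value of 8.59, 8.87 and 9.39 in ANTI-210 muscles, against 8.50, 8.80 and 9.38 in SCR muscles. The 2 groups covered the same range, and the difference was 0.06 (SE 0.11, p = 0.586). Its other 2 probes, at differences of -0.07 and 0.05, followed each other across mice (r = 0.90) more closely than they followed the brightest (r = 0.48 and 0.57), so the 3 probes do not describe 1 pattern.

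Mt1 was among the brightest probes in every muscle, at places 3 to 671 of the 38563 probes of an array. The lowest, median and highest value was 12.55, 13.47 and 15.33 in ANTI-210 muscles, against 12.94, 13.36 and 14.28 in SCR muscles. ANTI-210 mice lay both above and below all SCR mice. ANTI-210 mice 1, 2 and 3 were at 14.40, 15.04 and 15.33, and in the last of these only 2 probes of the whole array were brighter, near the highest value of 15.4. ANTI-210 mice 4, 5, 6 and 7 were at 12.62, 12.63, 12.55 and 12.74, under the lowest SCR mouse. The means were 13.58 ± 0.99 in ANTI-210 and 13.55 ± 0.44 in SCR muscles (SD, n = 11 each), and the difference was 0.03 (SE 0.32, 95% interval -0.62 to 0.69, p = 0.919).

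Mt2, the neighbour of Mt1 on chromosome 8, ranked the mice much like Mt1, at its own lower brightness. Its lowest, median and highest value was 5.23, 6.04 and 8.68 in ANTI-210 muscles, against 5.67, 6.49 and 7.37 in SCR muscles. The 3 highest mice were again ANTI-210 mice 1, 2 and 3, at 7.71, 8.25 and 8.68. The means were 6.54 ± 1.18 in ANTI-210 and 6.51 ± 0.51 in SCR muscles (SD, n = 11 each), with a difference of 0.03 (SE 0.37, p = 0.939). In numbers 4 to 11, 7 of 16 values were under 6, in the dim range. Mt1 and Mt2 were read by 1 probe each, and whether the probe of one also read RNA of the other was not tested.

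Within the sets of replicate numbers, the treatment difference of the metallothioneins had opposite signs. In numbers 1 to 3, Mt1 averaged 14.92 ± 0.48 in ANTI-210 and 13.71 ± 0.69 in SCR muscles (SD, n = 3 each), a difference of 1.22 with ANTI-210 mice 2 and 3 near the top of the scale, and Mt2 averaged 8.21 ± 0.49 in ANTI-210 and 6.96 ± 0.66 in SCR muscles, a difference of 1.25 or 2.38-fold. The lowest ANTI-210 mouse was above the highest SCR mouse for both genes, but with 3 against 3 a two-sided exact permutation test cannot go below 0.1, the value reached here. In numbers 4 to 11, Mt1 averaged 13.08 ± 0.53 in ANTI-210 and 13.49 ± 0.36 in SCR muscles (SD, n = 8 each), a difference of -0.41, and Mt2 averaged 5.91 ± 0.50 in ANTI-210 and 6.34 ± 0.35 in SCR muscles, a difference of -0.43. The groups overlapped there, and the two-sided exact permutation p was 0.0939 for Mt1 and 0.0723 for Mt2.

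The treatment differences in the 2 sets were compared directly in an interaction fit of limma over all probes. For Mt1 the difference in numbers 1 to 3 exceeded that in numbers 4 to 11 by 1.63 (95% interval 0.69 to 2.57, unadjusted p = 0.00176, adjusted p = 0.312), and for Mt2 by 1.68 (95% interval 0.77 to 2.58, unadjusted p = 9.85e-04, adjusted p = 0.268). For Gclm it was -0.41 (95% interval -0.81 to -0.01, unadjusted p = 0.0428, adjusted p = 0.448). The intervals of the other 6 genes included 0, with -0.46 for Keap1 (p = 0.0554) and -1.43 for Nqo1 (p = 0.0973). The unadjusted threshold was thus passed by 3 of 9 genes, against 12.2% of all genes, and after adjustment 0 genes of the array passed in limma's test. With the first principal component as a term of the fit, added after the data were seen, the values were 0.97 for Mt1 (unadjusted p = 0.00390), 1.18 for Mt2 (unadjusted p = 0.00462) and -0.14 for Gclm (unadjusted p = 0.299). No adjusted p and no share over all genes were computed for that fit.

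In numbers 1 to 3 the 2 treatment groups did not overlap for 5 of 9 genes, against 38.1% of all genes. Next to the higher Mt1 and Mt2, these were Nqo1 at 5.32 to 6.24 in ANTI-210 against 6.92 to 7.31 in SCR muscles, Keap1 at 10.11 to 10.25 in ANTI-210 against 10.47 to 10.73 in SCR muscles, and Gclm at 8.71 to 8.79 in ANTI-210 against 9.03 to 9.21 in SCR muscles. The differences were -1.27 for Nqo1, -0.44 for Keap1 and -0.39 for Gclm. In numbers 4 to 11 the same 3 genes differed by 0.17, 0.02 and 0.025, and the groups overlapped for all 9 genes. Markers of other cells differed in the same mice. In numbers 1 to 3, 10 of 11 macrophage markers, 8 of 11 markers of satellite cells and regenerating fibres and 9 of 9 fibroblast markers had higher means in ANTI-210 muscles, and 4 of 19 mature fibre markers did. So did 10 of 12 endothelial, 5 of 6 adipocyte, 4 of 7 neutrophil and 3 of 3 red blood cell markers. The macrophage score, the mean deviation of the 11 markers from their means over all mice, was 0.28 to 1.02 in ANTI-210 and -0.44 to -0.20 in SCR muscles of numbers 1 to 3. The score of regenerating fibres was 0.05 to 0.62 in ANTI-210 and -0.53 to -0.20 in SCR muscles, and that of mature fibres -0.19 to 0.13 in ANTI-210 and 0.10 to 0.19 in SCR muscles. The groups of numbers 1 to 3 thus overlapped for mature fibres but not for macrophages and regenerating fibres. They did not overlap for the endothelial score, at 0.02 to 0.30 in ANTI-210 and -0.28 to -0.04 in SCR muscles. Nor did they for adipocytes, at 0.29 to 0.76 in ANTI-210 and 0.04 to 0.25 in SCR muscles. The fibroblast score was 0.44 to 0.78 in ANTI-210 and -0.53 to -0.15 in SCR muscles, without overlap. The groups overlapped for neutrophils, at 0.03 to 0.22 in ANTI-210 and 6.5e-05 to 0.09 in SCR muscles. They also overlapped for red blood cells, at -1.20 to 1.73 in ANTI-210 and -0.93 to -0.07 in SCR muscles. Pax7 and Myf5, which define satellite cells, and the macrophage marker Itgam were dim. The part of these cell markers in the differences of Mt1, Mt2, Nqo1, Keap1 and Gclm was not tested.

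**Figure D2:**
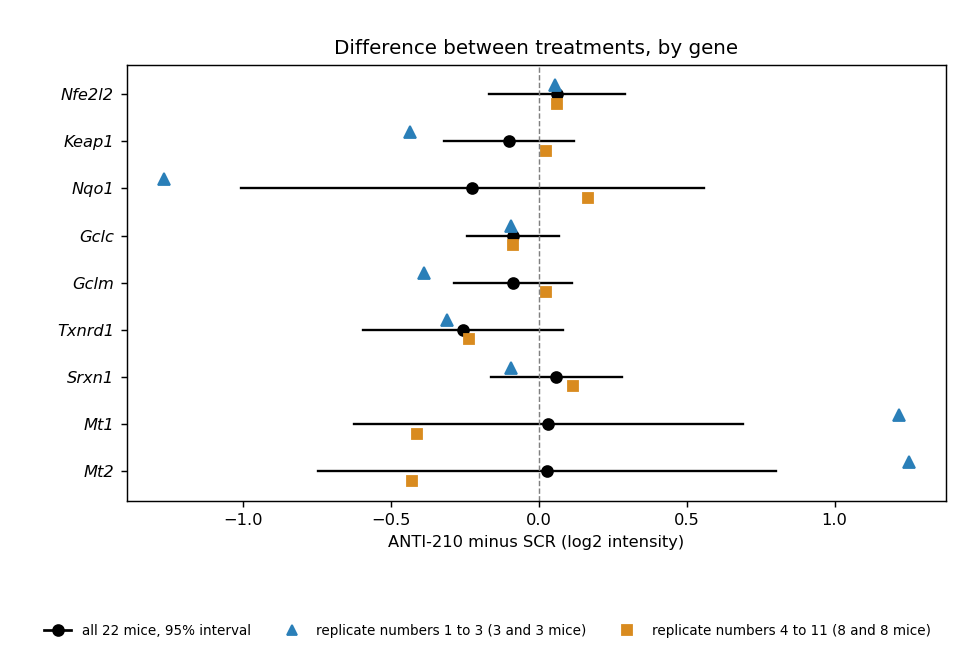
Difference between treatments (horizontal axis, log2 intensity in ANTI-210 minus that in SCR muscles) for each of 9 genes, with black circles and lines for all 22 mice and their 95% interval, blue triangles for replicate numbers 1 to 3 and orange squares for numbers 4 to 11. All 9 intervals include 0, and for Mt1, Mt2 and Nqo1 the 2 sets lie on opposite sides of 0 and far apart.

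Over all 22 mice, Mt1 and Mt2 varied together, and Mt1 ran against Keap1, Nqo1 and Gclm. Correlations were computed for the 36 pairs of the 9 genes over 22 mice, with permutation p-values (100000 resamples, smallest possible p 1e-05) adjusted over the 36 pairs, and 10 pairs passed an adjusted p of 0.05, 6 of them positive and 4 negative. Correlations of this size were common in the tissue. Of all pairs of the 8828 genes with a mean of 6 or more, 46.8% had an r at least as far from 0 as the weakest of the 10. The share at least as far from 0 was 1.61% for Keap1 with Nqo1 and 1.91% for Mt1 with Mt2, but 11.3% for Keap1 with Gclm, 13.2% for Nqo1 with Gclm and 23.7% to 31.3% for Mt1 with Gclm, Keap1 and Nqo1.

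Mt1 and Mt2 correlated at r = 0.93 (Spearman's rho 0.87, permutation p = 1e-05, adjusted p = 9e-05). The correlation was 0.98 in ANTI-210 mice (adjusted permutation p = 3.6e-04), and in SCR mice it was 0.66 and missed the threshold (adjusted permutation p of 0.222, and 0.421 by Spearman's rho). It was 0.79 in numbers 4 to 11, and 0.86 without the 2 mice farthest from the median of Mt1.

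Keap1, Nqo1 and Gclm also varied together. Keap1 and Nqo1 correlated at r = 0.93 (rho 0.88, permutation p = 1e-05, adjusted p = 9e-05), Keap1 and Gclm at 0.84 (rho 0.79), and Nqo1 and Gclm at 0.82 (rho 0.78), with the same adjusted p. The inhibitor of NRF2 and a quinone reductase that NRF2 activates were high in the same muscles. In numbers 4 to 11 the 3 values were 0.94, 0.86 and 0.87, and without the 2 farthest mice 0.91, 0.85 and 0.83. Mt1 correlated at -0.69 with Keap1 (rho -0.72, adjusted p = 0.00264), at -0.67 with Nqo1 (rho -0.68, adjusted p = 0.00370) and at -0.73 with Gclm (rho -0.74, adjusted p = 0.00101). In numbers 4 to 11 these were -0.83, -0.84 and -0.70. In ANTI-210 mice they were -0.80, -0.80 and -0.87, each past the adjusted threshold, and in SCR mice -0.61, -0.57 and -0.53, none past it (adjusted permutation p of 0.244, 0.309 and 0.373). In SCR mice 2 of the 36 pairs passed, Keap1 with Nqo1 at 0.94 and Nqo1 with Gclm at 0.83, no negative pair did, and by Spearman's rho neither of the 2 passed (adjusted permutation p of 0.256 and 0.421). Whether the correlations differ between the treatments was not tested. The correlation of Mt2 with Gclm was -0.62 (adjusted p = 0.00804), and its values with Keap1 and Nqo1, -0.49 and -0.50, missed the threshold (adjusted p of 0.0604 and 0.0537). By Spearman's rho the latter relations passed, at -0.56 with Keap1 and -0.57 with Nqo1 (adjusted permutation p of 0.0288 and 0.0232).

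No correlation of Nfe2l2 with the enzyme genes NRF2 is known to activate passed the threshold. It was -0.18 with Nqo1, -0.35 with Gclm, -0.35 with Gclc, -0.29 with Txnrd1 and 0.32 with Srxn1. It correlated with Mt1 at 0.52 (rho 0.44, adjusted p = 0.0465) and with Mt2 at 0.64 (rho 0.52, adjusted p = 0.00549), both p being of Pearson's r. By Spearman's rho the relation with Mt1 missed the threshold (adjusted permutation p = 0.105). The relation with Mt2 passed it (adjusted permutation p = 0.0496). Within numbers 4 to 11 both relations were near 0, at -0.08 and -0.03, and without the 2 farthest mice they were 0.35 and 0.47 with adjusted p of 0.233 and 0.0962, so they rest on the mice of numbers 1 to 3. Array values are of RNA, and the amount or activity of the NRF2 protein was not measured.

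**Figure D3:**
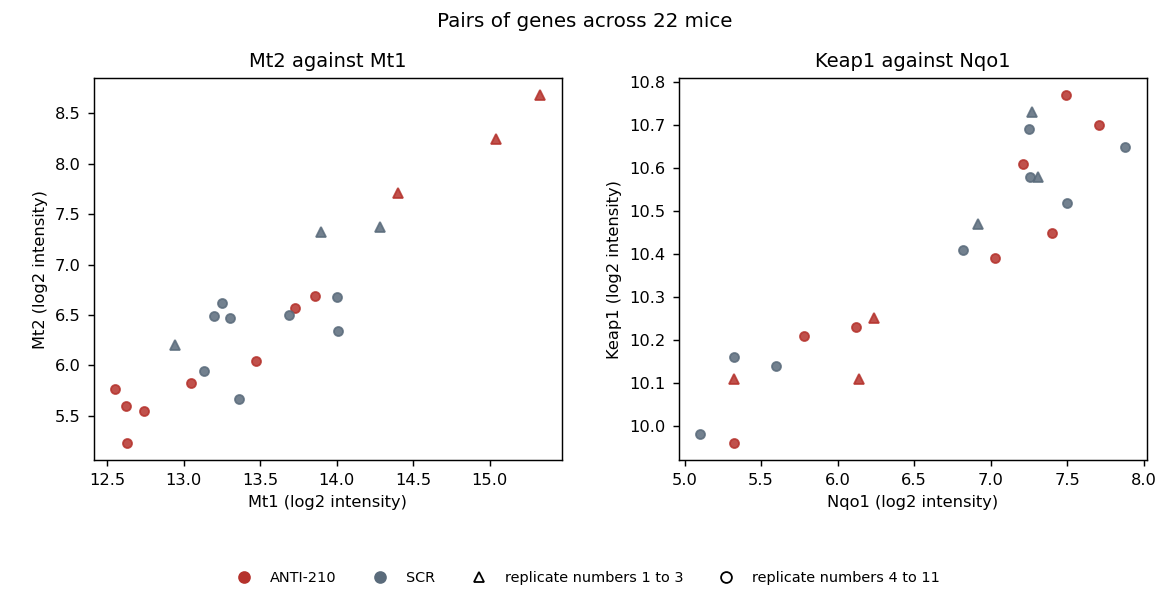
Mt2 against Mt1 (left) and Keap1 against Nqo1 (right), log2 intensity on all axes, 1 point per mouse, with ANTI-210 in red, SCR in grey, triangles for replicate numbers 1 to 3 and circles for numbers 4 to 11. Both pairs have r = 0.93 over 22 mice, and the 3 ANTI-210 mice with numbers 1 to 3 lie at the upper end of the metallothioneins and in the lower part of the other pair.

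Of the measured genes, Nqo1, Keap1, Gclm and Mt1 followed cell type markers of the muscle by Pearson's r. Each gene was set against 4 marker scores, giving 36 relations over 22 mice, of which 10 passed an adjusted p of 0.05. Relations of this size were common in the tissue. The weakest of the 10 was that of Mt1 with regenerating fibres. A correlation with that score at least as far from 0 was found for 63.9% of the 8828 genes. Nqo1 was lower in muscles with higher regeneration and macrophage markers, with r = -0.95 for satellite cells and regenerating fibres (rho -0.89) and -0.93 for macrophages (rho -0.84), and followed mature fibre markers at r = 0.81 (rho 0.74), all with adjusted permutation p = 6e-05. Keap1 had -0.92 (rho -0.88), -0.86 (rho -0.79) and 0.76 (rho 0.81) with the same adjusted p. Gclm had -0.78 for both scores (rho -0.73 and -0.74, adjusted permutation p of 1.35e-04 and 1.03e-04) and 0.47 for mature fibres (adjusted p = 0.0786). Mt1 ran the other way, at 0.61 with regenerating fibres (rho 0.66, adjusted p = 0.00882) and 0.64 with macrophages (rho 0.69, adjusted p = 0.00516), and Mt2 had 0.45 and 0.51, which missed the threshold (adjusted p of 0.0947 and 0.0528). By Spearman's rho both relations of Mt2 passed, at 0.59 each (adjusted permutation p = 0.0148 for both).

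With the macrophage and regeneration scores, Keap1, Nqo1 and Gclm passed an adjusted p of 0.05 in each treatment group of 11 mice by Pearson's r. By Spearman's rho, Nqo1 passed with both scores in both groups, whereas in SCR mice Keap1 and Gclm passed with neither (adjusted permutation p of 0.065 to 0.248), and in ANTI-210 mice Gclm missed with macrophages (adjusted permutation p = 0.0766). For Nqo1 and macrophages r was -0.90 in ANTI-210 and -0.96 in SCR mice, and -0.92 within numbers 4 to 11. For Mt1 and macrophages it was 0.80 in ANTI-210 mice (adjusted p = 0.0248) and 0.63 in SCR mice (adjusted p = 0.131), 0.75 within numbers 4 to 11 and 0.66 without the 2 farthest mice. Most genes of this tissue followed the same scores, so the values are given beside that background. Among the 8828 genes, 5.70% had a correlation with the macrophage score at least as far from 0 as that of Nqo1, 29.3% as that of Keap1, 43.3% as that of Gclm and 60.4% as that of Mt1. With the score of regenerating fibres the share was 4.01% for Nqo1, 13.5% for Keap1, 45% for Gclm and 63.9% for Mt1, and with that of mature fibres 31% for Nqo1 and 41.3% for Keap1. Mt1 and the macrophage score ranked the 6 mice of numbers 1 to 3 alike (rho 1). Over all 22 mice (rho 0.69) and in numbers 4 to 11 (rho 0.71) they did so only in part. SCR mice 6 and 7 had the highest scores among the 11 SCR mice, 1.22 and 1.05, with Mt1 at 14.00 and 14.01. ANTI-210 mouse 3 had a score of 1.02 and Mt1 at 15.33, and ANTI-210 mouse 11 a score of 0.98 and Mt1 at 13.86. Mouse 3 belongs to numbers 1 to 3 and the other mice named here to numbers 4 to 11. The source of these differences in Mt1 was not tested.

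Srxn1, Txnrd1, Gclc and Nfe2l2 passed the threshold with none of the 4 scores, with r between -0.30 and 0.24, and no gene did with the endothelial score, with r between -0.16 and 0.07. A low correlation of the dim Gclc says little, since its values span 0.62 near the floor of the array. Txnrd1 was dim too, with values spanning 1.34, and its low correlations carry the same limit.

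**Figure D4:**
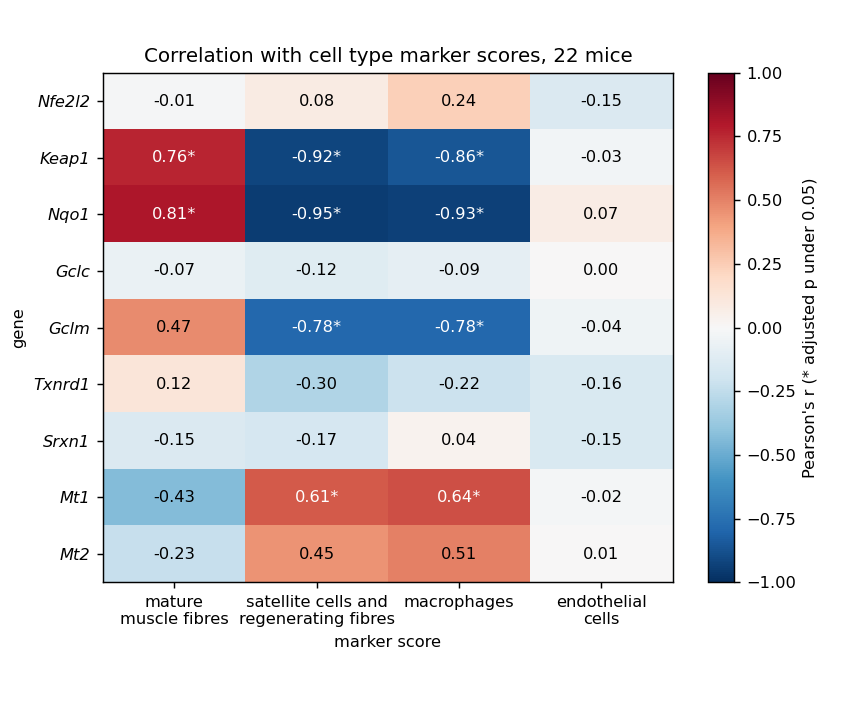
Pearson's r over 22 mice between the log2 intensity of each of 9 genes (rows) and 4 cell type marker scores (columns), in red for positive and blue for negative values, with a star for an adjusted permutation p under 0.05. Keap1, Nqo1 and Gclm are negative with regeneration and macrophage markers where Mt1 is positive, and no gene has a star for endothelial cells.

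**Figure D5:**
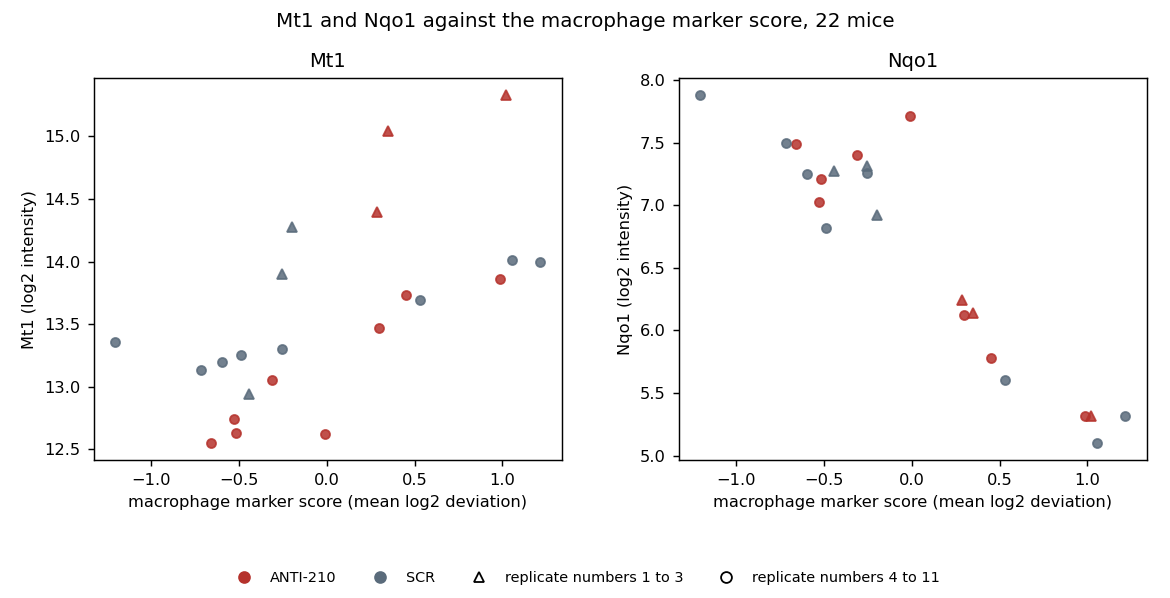
Log2 intensity of Mt1 (left) and Nqo1 (right) against the macrophage marker score, the mean log2 deviation of 11 markers from their means over all mice, with 1 point per mouse, ANTI-210 in red, SCR in grey, triangles for replicate numbers 1 to 3 and circles for numbers 4 to 11. Mt1 has r = 0.64 with the 3 ANTI-210 triangles above the other mice, and Nqo1 has r = -0.93.

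The genes most like each member were sought among those 8828 genes by Pearson's r over the 22 mice after subtracting each treatment's mean, as a description. For Mt2 the closest gene was Mt1, at 0.93. For Mt1 they were Cyth3 at 0.94, Fam107b at 0.94 and Cytip at 0.93, and Cytip, which encodes a cytohesin-binding protein of leukocytes, was also second for Mt2 at 0.90. The closest genes of Nqo1 were Dnajb12, Anapc5 and Kif1c at 0.98 each, those of Keap1 were Sqor, Ifrd2 and Mars1 at 0.97 each, and those of Gclm were Cmtm4 at 0.94 and Alad and Rnf113a1 at 0.93 each. Alad encodes an enzyme of heme synthesis, and Sqor a mitochondrial sulfide oxidase. For Srxn1 the first gene was Rtkn2 at 0.76, followed by the adult beta-globin genes Hbb-bs at 0.75 and Hbb-bt at 0.73. The closest genes of Txnrd1 were Las1l, Rpl22l1 and Zkscan3 at 0.90 to 0.91, those of Nfe2l2 were Agfg1, Nckap1 and Srsf11 at 0.82 to 0.83, and those of Gclc were Pla2g7, Il6st and Dcaf12 at 0.66 to 0.68.

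Around these members, 7 lists of pathway genes, 120 genes with 114 measured, were read in the same fit. The other NRF2 partners and regulators showed no difference past the threshold, 0 of 14 genes in either direction, with a median of -0.03. Of these 14 genes, 5 were dim, where a change may not be seen. The genes with the smallest p were Gsk3b, a kinase that marks NRF2 for degradation, at -0.17 (SE 0.10, p = 0.115), the dim Bach2 at 0.05 (p = 0.287) and the dim Maff, a small MAF partner, at -0.13 (p = 0.315). Among genes of glutathione synthesis and transfer, of which 5 of 27 were dim, 1 of 27 was higher and 1 was lower, against 1.45% higher and 2.01% lower over all genes. Abcc1, an exporter of glutathione conjugates, was at 5.93 ± 0.09 in ANTI-210 muscles, against 6.14 ± 0.28 in SCR muscles (SD, n = 11 each, difference -0.21, SE 0.09, unadjusted p = 0.0262, adjusted p = 1). Its mean over all mice, 6.04, lay just above the dim limit of 6. Gsta1, a glutathione transferase, was at 4.89 ± 0.15 in ANTI-210 and 4.77 ± 0.12 in SCR muscles (difference 0.12, SE 0.06, unadjusted p = 0.0443, adjusted p = 1), which lies at the floor of the array.

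In the remaining 5 lists no gene passed the unadjusted threshold in limma's test. These were 13 genes of peroxide and superoxide removal, with a median of 0.03 and the smallest p for Gpx4, the glutathione peroxidase of lipid peroxides, at -0.14 (p = 0.200), Gpx8 at 0.29 (p = 0.277) and Prdx1 at 0.05 (p = 0.471). Among 15 genes of the thioredoxin and glutaredoxin system, with a median of -0.05, the inhibitor of thioredoxin Txnip was at -0.24 (SE 0.14, p = 0.101), Glrx at 0.08 (p = 0.202) and the dim Msra at 0.03 (p = 0.350). The 9 measured genes of NADPH supply had a median of -0.06, with Taldo1 at -0.05 (p = 0.332), Pgls at -0.09 (p = 0.373) and Idh1 at 0.11 (p = 0.396). The 16 genes of heme and quinone detoxification had a median of 0.03, with the carbonyl reductases Cbr1 at -0.09 (p = 0.263) and Cbr3 at 0.17 (p = 0.297) and the epoxide hydrolase Ephx1 at 0.12 (p = 0.406). Of 20 genes of zinc and copper handling, with a median of 0.025, the zinc exporter Slc30a1, itself induced through MTF1, was at -0.15 (SE 0.08, p = 0.0640), the copper carrier Cp at 0.22 (SE 0.12, p = 0.0746) and the third metallothionein Mt3 at 0.29 (SE 0.22, p = 0.205). In these 5 lists 1, 3, 0, 3 and 7 genes were dim, in the order given, where a change may not be seen.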

How the data were processed

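Total RNA (200 ng a mouse) of 11 ANTI-210 and 11 SCR muscles was labelled and hybridized to Illumina MouseWG-6 v2 arrays, 1 mouse per array. The authors summarised beads with GenomeStudio, applied quantile normalization, and used beadarray to remove probes by expression and by quality. The deposited values were taken as log2 from their range, since the base is not stated in the sources used here, nor are versions and filter limits. Quantile normalization leaves each array the same distribution, so a shift of all genes could not be seen, and the number of arrays limits the precision.

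Gene symbols came from the platform annotation: 32093 probes had 1 symbol, 16 had several and 6454 had none, and only the first were named. Differences are ANTI-210 minus SCR from limma 3.58.1 (lmFit, eBayes, two-sided) in R 4.3.3, fitted and Benjamini-Hochberg adjusted over all 38563 probes. Correlations and permutation tests used NumPy 2.4.6 and SciPy 1.17.1 in Python 3.11.15. Motifs were searched in RefSeq promoter windows. The scripts were tested on simulated data. The members, the pathway and marker lists and the tests were chosen with earlier results of these data known. Named genes were all members, the genes of each pathway list past an unadjusted p of 0.05 (otherwise the 3 with the smallest p), and the 3 genes most like each member. Replicate numbers were checked for pairing: deviations from the group means of same-numbered mice correlated above 0.1 in 4 of 11 pairs, so the numbers were not used as pairs. Alternatives covered normalization, moderation, array weights, the methods' t-test, dim probes, the probe rule, a replicate block, covariates and each mouse left out.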

Additional observations from a re-analysis of the deposited data

Results flagged for a closer look

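For 3 genes the interaction of treatment and set of replicate numbers had an unadjusted p under 0.05 in limma's fit, and none passed after adjustment. The difference ANTI-210 minus SCR in numbers 1 to 3 minus that in numbers 4 to 11 was 1.68 for Mt2, 1.63 for Mt1 and -0.41 for Gclm. Their adjusted p over all probes were 0.268, 0.312 and 0.448, and 12.2% of all genes passed the same unadjusted threshold. In numbers 1 to 3 only 3 mice stood in each group. No label says what separates the 2 sets.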

How the results depend on the processing

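Of 12 settings other than leaving out a mouse, 10 put 0 of 9 members past the unadjusted threshold, the methods' t-test included, and 2 put 1 past it, namely array weights (Keap1, -0.19, p = 0.0448) and a replicate block (Txnrd1, -0.26, p = 0.00719). The replicate numbers do not pair the mice (correlations of same-numbered deviations between -0.76 and 0.76), and with the block 1 of 14 NRF2 partners and 1 of 20 genes of zinc and copper handling also passed, while the other pathway counts were as before. The difference of Srxn1 was -0.0058 under array weighting. Adjusting for principal component 1, Mt1 and Mt2 were at -0.084 and -0.070. Within replicate numbers 4 to 11, a setting added after the data were seen, Keap1, Nqo1 and Gclm were at 0.024, 0.17 and 0.025, and Mt1 and Mt2 at -0.41 (p = 0.0766) and -0.43 (p = 0.0558). When each mouse was left out in turn, 0 to 1 members passed (Txnrd1, without ANTI-210 mouse 5), and the differences of Mt1 were between -0.14 and 0.14 and those of Mt2 between -0.19 and 0.16, turning negative without ANTI-210 mouse 1, 2 or 3, and without SCR mouse 1 or 9 among others. Over all settings the lowest p of Mt1 and Mt2 was 0.0766 and 0.0558. Pathway counts, at 2 for glutathione genes and 0 for the others, were small and moved with the setting. With array weights 1 NRF2 partner, 2 genes of peroxide removal, 1 of the thioredoxin system and 1 of heme and quinone detoxification passed. Adjusting for principal component 1, the counts were 5 for glutathione, 3 for thioredoxin, 2 for NADPH supply, 1 for heme and quinone detoxification and 1 for zinc and copper. With brighter probes only and within numbers 4 to 11, 1 glutathione gene passed, and after averaging the probes of each gene, 1 glutathione gene and 1 of zinc and copper. Leaving out each mouse gave 1 to 4 for glutathione, 0 to 2 for zinc and copper, and 0 to 1 for NRF2 partners and for thioredoxin. The cause of these moves was not tested. For the difference between the 2 sets of replicate numbers, Mt1 was at 1.61 with median centring and 0.97 (unadjusted p = 0.00390) when adjusted for principal component 1, an alternative added after the data were seen, and Mt2 at 1.66 and 1.18 (unadjusted p = 0.00462). With that covariate Gclm was at -0.14 (p = 0.299), Nqo1 at 0.031, Gclc at 0.021 and Txnrd1 at 0.11. Relations past an adjusted p of 0.05, 10 of 36 both for the markers and for pairs of members over all mice, were 13 and 9 without the 2 farthest mice, 15 and 8 in numbers 4 to 11, 11 and 10 in ANTI-210 mice, 8 and 2 in SCR mice, and 0 and 3 in the 6 mice of numbers 1 to 3. Median centring gave 10 for the markers, and averaging the probes of each gene 14 for pairs. Brightness limits Gclc, Txnrd1 and the lower values of Mt2.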

Other observations

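Markers of other cells in the muscle were read in the same fit of all 22 mice. Endothelial markers were the list with most genes past the unadjusted threshold, 5 of 12 being higher in ANTI-210 muscles, against 1.45% of all genes: Emcn by 0.21 (p = 0.00526), Cdh5 by 0.25 (p = 0.00956), Robo4 by 0.20 (p = 0.0167), Esam by 0.17 (p = 0.0484) and Tek by 0.19 (p = 0.0487), each with an adjusted p of 1. For 4 of them the difference was wider in replicate numbers 1 to 3 than in numbers 4 to 11, at 0.50 and 0.10 for Emcn, 0.55 and 0.14 for Cdh5, 0.59 and 0.06 for Robo4 and 0.56 and 0.02 for Esam, and for Tek it was 0.09 and 0.22. Among 19 mature fibre markers Eno3 was higher by 0.08 (p = 0.00872), and among 6 adipocyte markers the dim Retn was lower, by -0.08 (p = 0.0382). Of the 11 macrophage markers, 11 markers of satellite cells and regenerating fibres, 9 of fibroblasts, 7 of neutrophils and 3 of red blood cells 0 passed in limma's unadjusted test, with medians of 0.29, -0.01, 0.25, 0.02 and 0.24.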
